A study of Mus musculus with 24 samples.

Results

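The 7 genes followed here encode the proteins with which a cell detects double-stranded or viral RNA in the cytosol and in endosomes: Ddx58, Ifih1, Dhx58, Ddx60, Mavs, Eif2ak2 and Tlr3. They were chosen by name for this role, all 7 were found among the 52636 genes of the deposited table, and all 7 passed the filter on low values in every comparison. RNA was measured by RNA-seq in MC38, a colon carcinoma cell line of C57BL/6 mice, in 3 samples from each of 8 lines. MC38-WT was not transfected and was harvested at passages 7 to 9. MC38-MOCK#1 carried an empty CRISPR-Cas9 construct and was the reference of the knockout lines MC38-COSMC KO (aimed at C1galt1c1, the chaperone gene of T-synthase), MC38-CMAS KO (aimed at Cmas, which activates sialic acid) and MC38-DKO (aimed at both). These 4 lines went through puromycin selection and were harvested at passages 4 to 6. MC38-MOCK#2 and MC38-FUT9 (passages 6 to 8) and the line labelled MC38-FUT4 (passages 7 and 8) carried the activator CRISPR-dCas-VPR, with MC38-MOCK#2 as the reference. The MC38-COSMC KO cells were sorted in bulk for high binding of a lectin specific for N-acetylgalactosamine, the sugar of the Tn antigen. This line is therefore a population and not a clone, and each edited genotype is represented by a single line.

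RIG-I (encoded by Ddx58) and MDA5 (Ifih1) are cytosolic helicases that bind foreign or unprocessed double-stranded RNA and signal through the mitochondrial adaptor MAVS, which leads to phosphorylation of IRF3 and NF-kappaB activation and to production of type I interferon. LGP2 (Dhx58) binds RNA but lacks the signaling domain and modulates the other helicases, DDX60 is a helicase linked to the same receptors, PKR (Eif2ak2) is a kinase that halts translation when it binds double-stranded RNA, and TLR3 senses double-stranded RNA in endosomes. The genes of most of these sensors are themselves induced by interferon, so that a cell that has responded to interferon carries more sensor than a resting cell.

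The deposited values are read counts scaled per library by the authors and rounded to whole numbers, termed normalized counts here, and they summed to between 10911849 and 12263307 per sample. Cmas was at 93 to 142 in the 6 samples of MC38-CMAS KO and MC38-DKO and at 272 or more in the other samples. C1galt1c1 was at 124 to 163 in MC38-COSMC KO against 220 to 251 in MC38-MOCK#1, and at 166 to 206 in MC38-DKO, where it overlapped with several lines that were not targeted. In the line labelled MC38-FUT4, Fut4 did not exceed 1 normalized count, whereas Fut9 was at 209, 171 and 186, compared with 955, 641 and 676 in MC38-FUT9 and at most 7 in all other lines. The RNA thus goes against the label FUT4, and the line is called by its label only. Samples 1 and 3 of this line, both labelled passage 7, were the most similar pair among all pairs of samples from 1 line, but differed by more than 2-fold in 115 of 10874 genes and were counted as separate samples. Of 7 epithelial markers, 5 (Epcam, Cdh1, Krt18, Krt19 and Cldn7) were nearly absent from all lines, with means below 3. The other epithelial markers, Krt8 and Krt20, had means of 3 or more, and Krt20 differed between lines (limma F test, adjusted p = 1.44e-10). Mesenchymal markers summed to 20563 to 33382. Leukocyte markers summed to 25 to 72 per sample, and 10 of 12 had a mean below 3. Of the lines, the one labelled MC38-FUT4 stood apart in the summed epithelial markers, at 266 to 476 against 48 or less elsewhere, and whether this bears on its sensor levels was not tested.

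The promoters of the sensor genes differed in the motifs they hold. RefSeq entries (GRCm38.p6, 250 bases before to 50 bases after the start) were at hand for 6 of the 7 genes, and Dhx58 was not among them. The core of the interferon-stimulated response element, 2 copies of GAAA separated by any 2 bases, on either strand, was present in the 300 bases of 4 of these 6 genes, Ddx58, Ifih1, Ddx60 and Eif2ak2, and in 3.44% of 32851 promoters of the table. Within the 250 bases before the start it was found in Ddx60 only, as 2 copies, against 2.98% of promoters. In the other 3 genes the match lay just after the annotated start, at bases 3 to 12 of the transcript in Ddx58 (on the opposite strand), 33 to 42 in Ifih1 and 19 to 28 in Eif2ak2. No match was found in the entries of Mavs and Tlr3. The 250 bases before the start in the Tlr3 entry (chr8:45410381-45410630, minus strand) lie within the annotated gene, which runs from 45395665 to 45411080. The sequence before the annotated end of Tlr3 at 45411080 was therefore not searched. The stretches that hold the motif are given below with the motif in capitals, together with the promoter of Mavs for comparison, since Mavs was the member that varied apart from the others.
Ddx60, 250 bases before the start, chr8:61927837-61928086, plus strand: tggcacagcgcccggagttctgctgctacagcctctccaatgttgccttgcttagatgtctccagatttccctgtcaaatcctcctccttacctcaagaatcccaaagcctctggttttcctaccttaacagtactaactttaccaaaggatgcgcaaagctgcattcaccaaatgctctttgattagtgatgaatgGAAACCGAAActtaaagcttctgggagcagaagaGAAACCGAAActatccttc
Ddx58, chr4:40239810-40239833, minus strand: cctgaggcagTTTCGATTTCctat
Ifih1, chr2:62646210-62646233, minus strand: gaagagaatcGAAACAGAAAccga
Eif2ak2, chr17:78882541-78882564, minus strand: agtccgccggGAAAACGAAAcaga
Mavs, 250 bases before the start, chr2:131233813-131234062, plus strand: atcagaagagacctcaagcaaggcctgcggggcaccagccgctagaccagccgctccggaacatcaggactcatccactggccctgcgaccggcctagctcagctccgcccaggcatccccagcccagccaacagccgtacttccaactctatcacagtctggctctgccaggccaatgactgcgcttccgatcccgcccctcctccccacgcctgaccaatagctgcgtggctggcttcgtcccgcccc
Of the other motifs searched, the interferon-gamma-activated site TTCNNNGAA occurred in the 250 bases of Eif2ak2 only (7.02% of promoters), and the NF-kappaB motif, GGG and CC separated by any 5 bases on either strand, occurred in Eif2ak2 and Tlr3. The latter motif is loose and was present in 45.8% of promoters. A match describes the sequence and does not show that a factor binds there.

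At the RNA level, the 7 genes spanned a wide range in MC38 cells. Divided by exon length, the median over 24 samples was 236 normalized counts per kilobase for Mavs, 148 for Eif2ak2 and 89.9 for Ddx58, whereas Tlr3 was at 20.2, Ifih1 at 16.1, Dhx58 at 14.2 and Ddx60 at 2.82. The adaptor and the kinase were therefore the most abundant transcripts of the group per length, and the helicase DDX60 the least. All 7 genes were detected in each of the 24 samples. The spread over lines was tested with an F test in limma across all 20944 genes that passed the filter. Of the 7 genes, 4 differed between lines, compared with 48.2% of all genes tested, so that this count is not special to the sensors. The adjusted p-values were 3.15e-06 for Ifih1, 9.64e-07 for Mavs, 0.000174 for Ddx58 and 0.0162 for Ddx60 (0.0787 without sample 1 and 0.0635 without sample 2 of MC38-FUT9), whereas Dhx58 (0.324), Eif2ak2 (0.128) and Tlr3 (0.334) did not pass.

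Ordered by line mean, Ddx58 ranged from 1040 ± 627 normalized counts in MC38-MOCK#2 (SD, n = 3, as for all values with ± here) through 940 ± 394 in MC38-MOCK#1, 837 ± 494 in MC38-WT, 678 ± 267 in MC38-DKO, 631 ± 258 in the line labelled FUT4, 501 ± 167 in MC38-CMAS KO and 437 ± 154 in MC38-COSMC KO to 113 ± 11.9 in MC38-FUT9. Only the last neighbours in this order did not overlap in their samples. Ifih1 ranged from 260 ± 105 in the line labelled FUT4 to 71.3 ± 19.9 in MC38-COSMC KO and 12.3 ± 1.53 in MC38-FUT9, again with the last step as the only one without overlap. The same was seen for Ddx60, at 84.7 ± 71.0 in MC38-WT, 16.3 ± 10.1 in MC38-COSMC KO and 4.0 ± 2.65 in MC38-FUT9. Thus MC38-COSMC KO and MC38-FUT9 had the lowest means of all 3 helicase genes.

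For Mavs, the order was different and its steps were small. The line labelled FUT4, at 1130 ± 44.6, was apart from MC38-DKO at 854 ± 26.8, and MC38-COSMC KO, at 720 ± 16.3, was apart from both its neighbours, MC38-CMAS KO at 790 ± 28.2 and MC38-FUT9 at 665 ± 19.6. MC38-WT was the lowest, at 657 ± 70.6, and overlapped with MC38-FUT9. No neighbouring lines were apart for Eif2ak2, which ranged from 1155 ± 559 in MC38-MOCK#2 to 624 ± 67.5 in MC38-CMAS KO, for Tlr3, which ranged from 168 ± 135 in MC38-MOCK#2 to 68.7 ± 17.2 in MC38-FUT9, or for Dhx58, which ranged from 103 ± 112 in MC38-MOCK#2 to 32.3 ± 6.11 in MC38-FUT9. The SD in MC38-MOCK#2 comes from its sample 3, at 1800, 324 and 232 normalized counts of Eif2ak2, Tlr3 and Dhx58, against 834, 94 and 42 or less in its other samples.

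**Figure D1:**
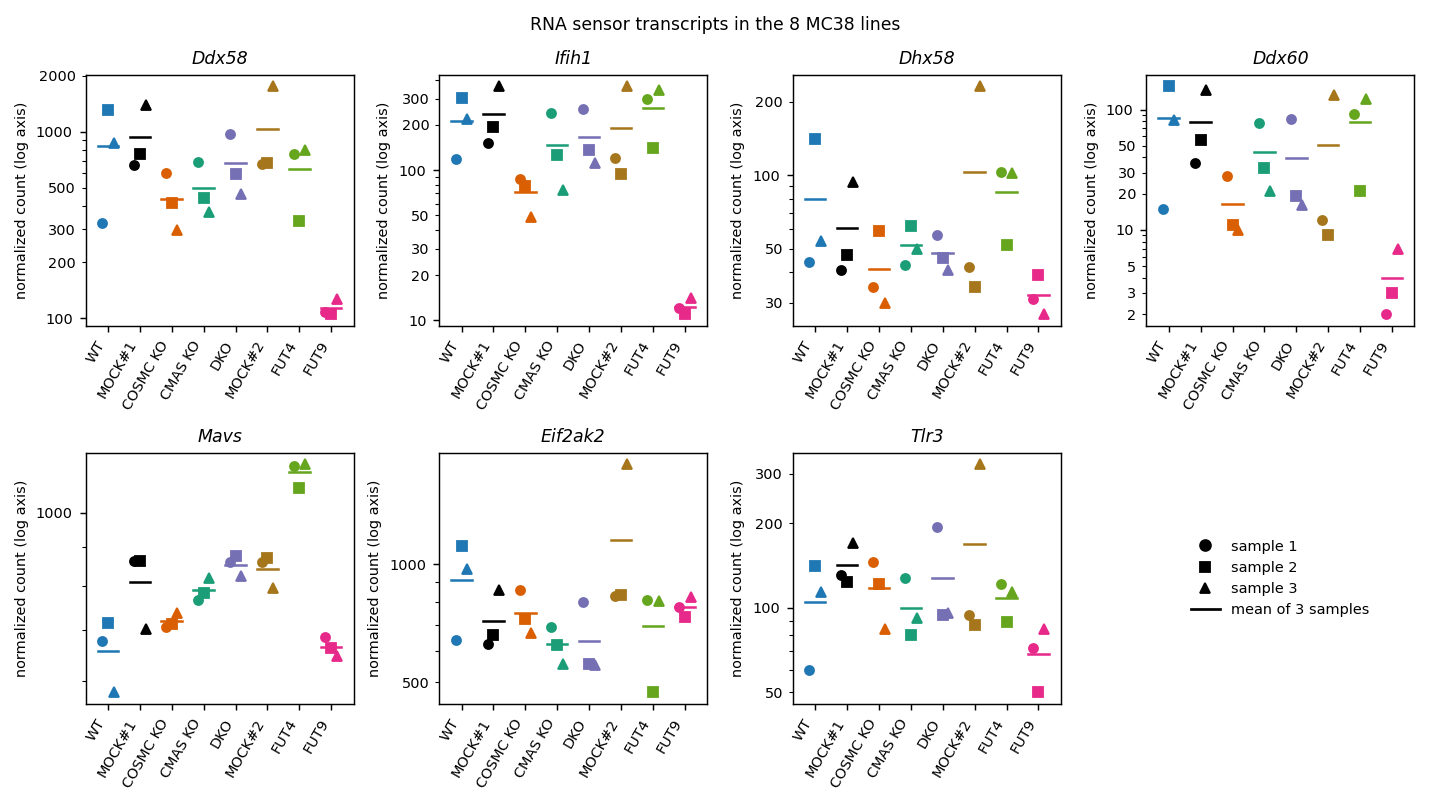
Normalized counts (log axis, scale set per panel) of the 7 sensor genes in 3 samples of each of 8 MC38 lines, with symbols for sample number and a bar for the mean. Ddx58, Ifih1 and Ddx60 were lowest in MC38-FUT9 (at most 127, 14 and 7 normalized counts), while Mavs was highest in the line labelled FUT4 (1079 to 1159).

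MC38-FUT9 was the line in which the cytosolic helicases were lowest. Ddx58 (chromosome 4, 40203773 to 40239828, minus strand) was at 108, 105 and 127 normalized counts in samples 1 to 3 of MC38-FUT9, against 674, 682 and 1764 in MC38-MOCK#2. Ifih1 (chromosome 2, 62595798 to 62646255, minus strand) was at 12, 11 and 14, compared with 121, 94 and 361. For either gene all samples of MC38-FUT9 were below all reference samples, and the line means differed 9.18-fold for Ddx58 and 15.6-fold for Ifih1. The log2 difference was -3.03 for Ddx58 (SE 0.361, limma adjusted p = 0.0018) and -3.60 for Ifih1 (SE 0.479, adjusted p = 0.00269). In these bulk samples, fewer cells with a transcript and less of it per cell cannot be told apart. Sample 3 of MC38-MOCK#2 was the highest of its line for both genes, and without it the log2 differences were -2.58 and -3.02, still at adjusted p-values of 0.00214 and 0.00328.

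Across the group, 3 of 7 sensor genes were called between MC38-FUT9 and MC38-MOCK#2, each of them lower in MC38-FUT9, while 24.1% of all genes were called, 2596 as higher and 2570 as lower. With all libraries set to the same total, the split of all genes was 1979 higher and 3237 lower, and 3 sensor genes were lower as before. The third gene called was Mavs (chromosome 2, 131234063 to 131248025, plus strand), at 685, 663 and 646 against 860, 872 and 796, a log2 difference of -0.34 (SE 0.0652, adjusted p = 0.0107). For 6 of 7 genes, all but Dhx58, the 2 lines did not overlap in their samples, compared with 36.8% of all genes, and the median log2 difference was -1.11 for the 7 genes and 0.01 for all genes tested. Without sample 3 of MC38-MOCK#2 the median of the 7 genes was -0.42. Ddx60 (chromosome 8, 61928087 to 62038244, plus strand) was at 2, 3 and 7 normalized counts in MC38-FUT9 and at 12, 9 and 131 in MC38-MOCK#2 (log2 difference -2.49, adjusted p = 0.121). Its reference samples differed from each other by more than the gap between lines. The log2 differences of Tlr3 (-1.03, adjusted p = 0.197), Dhx58 (-1.11, 0.285) and Eif2ak2 (-0.47, 0.29) were likewise not called, and each had 1 reference sample, sample 3, well above the other two.

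MC38-FUT9 also stood below the remaining lines. For Ddx58, Ifih1 and Ddx60, all 3 samples of MC38-FUT9 were below all 21 samples of the other lines, whose lowest values were 297, 49 and 9. This held for 5.51% of all genes tested. Eif2ak2, in contrast, was at 777, 734 and 824 in MC38-FUT9, within the range of 471 to 1800 of the other lines, and only 7 of the 21 other samples were above its highest value. For Dhx58 and Tlr3, 18 of the 21 other samples were above the highest MC38-FUT9 sample, and for Mavs 19 of 21.

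The interferon-induced genes were mostly lower in MC38-FUT9, whereas most of the tested genes in the other lists around the sensors were not called or were divided in direction. Among 28 interferon-induced genes, 23 were called lower than in MC38-MOCK#2 and none higher, with a median log2 difference of -3.96. The oligoadenylate synthetase family gave the 4 smallest adjusted p-values, at log2 differences of -4.47 for Oasl1, -5.16 for Oas1a, -5.07 for Oas3 and -5.03 for Oasl2. Oasl1 was at 13, 11 and 25 normalized counts in MC38-FUT9, against 276, 256 and 664. Of 19 regulators of the RIG-I, MDA5 and MAVS pathway, 8 were lower and 1 higher. The regulators include Nlrc5, an NLR-family gene (-4.11, adjusted p = 0.000362), and Tmem173, which encodes the DNA-pathway adaptor STING (-3.05, adjusted p = 0.00243). Nlrc5 was at 15, 18 and 11 against 228, 205 and 397. Of 17 tested genes for other RNA sensors and cofactors, 4 were lower and 1 higher, and the lower ones included Ifit1 (-4.31), Zbp1 (-3.78) and Skiv2l (-0.27). Ifit1 and Zbp1 are interferon-induced themselves and are counted in both lists. Over all genes, 24.1% were called in this comparison.

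Downstream of the sensors, 5 of 18 adaptors and kinases were lower and 1 was higher, a share not far from the 24.1% called over all genes. The higher one was Traf3, a ubiquitin ligase that binds MAVS, at 1135, 1071 and 1097 in MC38-FUT9 against 758, 735 and 741 (log2 difference 0.56, adjusted p = 0.00101). Tbk1, the kinase of IRF3, was lower (-0.46, adjusted p = 0.00496), as were Myd88 (-0.42) and Tank (-0.43). Of 10 transcription factors, Irf1 (-1.18, adjusted p = 0.00137) and Irf7 (-4.26, adjusted p = 0.0262) were among 3 called lower, and Nfkb1 (0.29) and Nfkb2 (0.45) were called higher. Irf7 is also counted among the interferon-induced genes. In the list of PKR and translation control, 2 of 13 genes were lower, Ppp1r15a (-0.68) and Eif2ak4 (-0.36), and 1 was higher, Ddit3 (0.89, adjusted p = 0.00118), with a median of 0.001. Irf3 itself was at 612, 590 and 575 in MC38-FUT9 and 615, 561 and 572 in MC38-MOCK#2. At the output end, Ifnb1 did not exceed 1 normalized count in any of the 24 samples, and only 3 of 14 interferon and cytokine genes could be tested, of which the chemokine gene Ccl5 was lower (-3.12, adjusted p = 0.0133). Ccl5 was at 2, 2 and 7 in MC38-FUT9 against 24, 22 and 81.

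Because Fut9 RNA was present in 2 lines, MC38-FUT9 was also compared with the line labelled MC38-FUT4, a comparison added after the values were seen. Fut9 was higher in MC38-FUT9 (log2 difference 1.98, adjusted p = 0.000245). Ddx58 was at 756, 334 and 803 in the line labelled FUT4 and Ifih1 at 299, 141 and 340, all above the 3 samples of MC38-FUT9. Of the 7 sensor genes, 5 were called lower in MC38-FUT9, where 31.5% of all genes were called and 15.8% called lower (3452 higher and 3470 lower, or 2878 and 4157 with equal totals). For 6 of 7 genes the lines did not overlap, as for 41.4% of all genes. This comparison shares the MC38-FUT9 samples with the one above. These were Ifih1 (-4.20, adjusted p = 0.000219), Ddx60 (-3.79, adjusted p = 0.00689), Ddx58 (-2.37, adjusted p = 0.00191), Dhx58 (-1.33, adjusted p = 0.0154) and Mavs (-0.76, adjusted p = 0.000162). Eif2ak2 did not pass (0.20, adjusted p = 0.522, 95% interval -0.29 to 0.70), and Tlr3 was at -0.67 (adjusted p = 0.0605). Dhx58 no longer passed without sample 1 or 3 of either line (adjusted p 0.0719 to 0.0787), nor did Ddx60 without sample 1 of the line labelled FUT4 (adjusted p = 0.0513). Of the markers tested, 1 of 4 epithelial, 2 of 6 leukocyte and 1 of 3 endothelial genes were also called lower in MC38-FUT9. Of 5 mesenchymal genes, 2 were called higher and 2 lower. The part of these markers in the differences of the sensor genes was not tested.

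**Figure D2:**
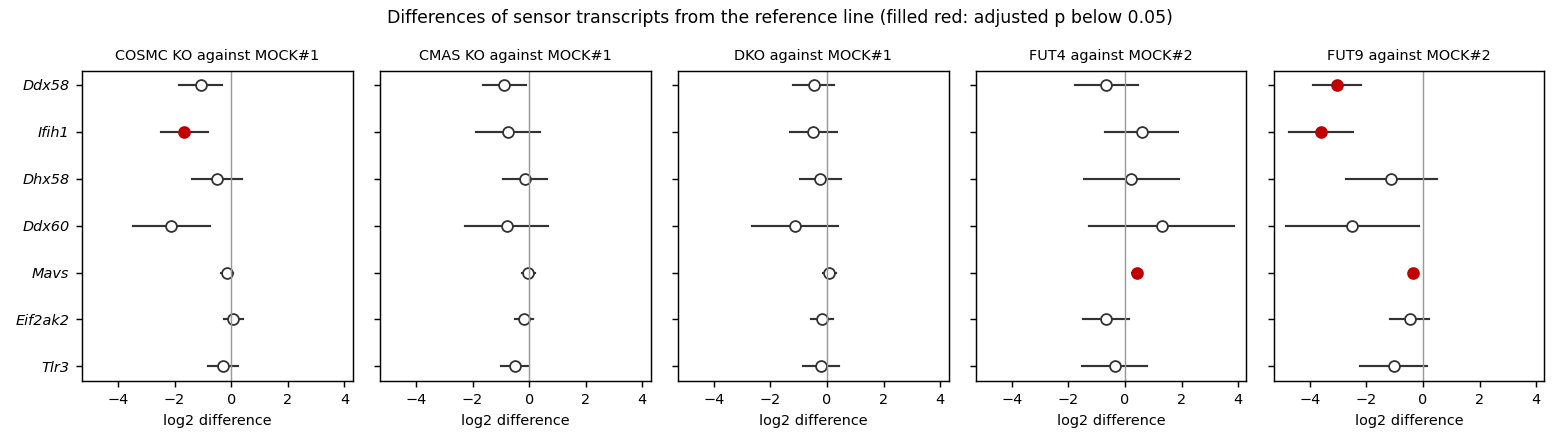
Log2 differences (points) with 95% intervals (lines) of the 7 sensor genes, for each line against its reference line in 5 comparisons with 3 samples per line. Filled red points have an adjusted p below 0.05: Ifih1 in MC38-COSMC KO, Mavs in the line labelled FUT4, and Ddx58, Ifih1 and Mavs in MC38-FUT9.

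In the line labelled MC38-FUT4, the adaptor gene Mavs was the only sensor gene called against MC38-MOCK#2. It was at 1153, 1079 and 1159 normalized counts, against 860, 872 and 796, with a log2 difference of 0.42 (SE 0.0674, adjusted p = 0.00712), and 16.1% of all genes were called in this comparison and 8.10% called higher. The samples did not overlap, as for 32.1% of all genes, and these 3 values were the highest of Mavs among all 24 samples. The 6 other sensor genes did not pass, at log2 differences between -0.67 (Eif2ak2) and 1.29 (Ddx60). Mavs varied little within lines, with a standard deviation of 0.094 on the log2 scale over samples of 1 line, compared with 0.643 for Ddx58 and 1.3 for Ddx60. A difference of this size would therefore not be resolved for the other genes. Among the genes around the sensors, Tbk1 (-0.65, adjusted p = 0.00227), its partner Tbkbp1 (-0.80) and Rnf135, a ubiquitin ligase for RIG-I (-1.01, adjusted p = 0.00729), were lower in the line labelled FUT4. Of the interferon-induced genes, 1 of 28 was called, Ifit2, at 114, 101 and 98 against 215, 267 and 367 (-1.40, adjusted p = 0.00457).

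The comparison of MC38-COSMC KO with MC38-MOCK#1 addresses the loss of C1galt1c1, through which the truncated Tn antigen accumulates. Ifih1 was at 87, 78 and 49 normalized counts in MC38-COSMC KO and at 151, 194 and 364 in MC38-MOCK#1, and was the only sensor gene called (log2 difference -1.65, SE 0.348, adjusted p = 0.0249). In this comparison 11.6% of all genes were called and 5.39% called lower (1367 higher and 1196 lower, or 1125 and 1746 with all libraries set to the same total). Ddx58, at 602, 413 and 297 against 665, 763 and 1391, and Ddx60, at 28, 11 and 10 against 36, 56 and 146, did not overlap between lines either, as did 28.4% of all genes, but had adjusted p-values of 0.0785 and 0.0576. Their log2 differences were -1.08 and -2.11. In the study's own edgeR exact test of this comparison (FDR below 0.05), Ddx58, Ifih1 and Ddx60 were all among the differentially expressed genes. With limma on the rounded normalized counts, only Ifih1 was called. Eif2ak2 was at 860, 726 and 668 against 626, 662 and 859 (log2 difference 0.08, 95% interval -0.25 to 0.41), and Dhx58, Mavs and Tlr3 were between -0.51 and -0.16. The call of Ifih1 did not hold without any 1 of the 6 samples, where adjusted p-values lay between 0.0583 and 0.121. Without sample 3 of MC38-MOCK#1, Mavs was called instead (-0.26, adjusted p = 0.0318).

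Seen by passage, the lines differed by unequal amounts, with 1 sample per line and passage and hence no test. At passage 4 (sample 1 of either line) Ddx58 was at 602 in MC38-COSMC KO and 665 in MC38-MOCK#1, at passage 5 at 413 and 763, and at passage 6 at 297 and 1391. Ddx60 was at 28 and 36 at passage 4, and at 10 and 146 at passage 6. The gap between the lines was widest at passage 6 for Ddx58, Ifih1 and Ddx60, where the knockout line had its lowest and MC38-MOCK#1 its highest value of the 3 passages. Sample number and passage coincide in these lines. Ifih1 was called with passage as a covariate (adjusted p = 0.0461) but not without a mean-variance trend (adjusted p = 0.0908).

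Around the sensors, 6 of 28 interferon-induced genes were called lower in MC38-COSMC KO than in MC38-MOCK#1 and none higher (median log2 difference -1.11), among them Oas3 (-2.43), Usp18 (-2.30), Cmpk2 (-2.31) and Dtx3l (-0.73). Usp18 removes ISG15 from proteins, and Cmpk2 is a mitochondrial nucleotide kinase. Of 10 transcription factors 2 were lower and 1 was higher, Jun (1.60, adjusted p = 0.0342), and of 19 regulators 3 were lower and 1 was higher, Pcbp2 (0.25, adjusted p = 0.0205). Irf1 was at 515, 444 and 477 against 747, 761 and 761 (-0.66, adjusted p = 0.00234), and Nlrc5 at 166, 122 and 121 against 319, 327 and 420 (-1.38, adjusted p = 0.00313). Tbk1, in contrast, was higher in MC38-COSMC KO, at 825, 842 and 785 against 504, 509 and 556 (0.64, adjusted p = 0.00215), and was the only 1 of 18 adaptors and kinases called. These differences were also seen in other lines against the same 3 samples of MC38-MOCK#1: Nlrc5 was lower in MC38-WT (-1.83, adjusted p = 0.0413) and in MC38-CMAS KO (-0.96, adjusted p = 0.0132), Irf1 was lower in MC38-CMAS KO (-0.64, adjusted p = 0.0106), and Tbk1 was higher in MC38-CMAS KO (0.41, adjusted p = 0.0233) and in MC38-MOCK#2 (0.63, adjusted p = 0.0046). Of 13 genes for PKR and translation control, Ddit3 was higher (1.15, adjusted p = 0.0105) and Dnajc3, Eif2s2 and Eif2s1 were lower, by at most 0.42 on the log2 scale. Of the mesenchymal markers, 2 of 5 tested were higher in MC38-COSMC KO, Col1a2 (1.23) and Pdgfrb (2.35), and their part in these results was not tested.

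No sensor gene was called in MC38-CMAS KO or in MC38-DKO against MC38-MOCK#1 with limma. In MC38-CMAS KO, where 5.76% of all genes were called, Ddx58 was at 689, 444 and 370 normalized counts (log2 difference -0.88, adjusted p = 0.177) and Tlr3 at 128, 80 and 92 against 131, 124 and 170 (-0.51, adjusted p = 0.221). These were the 2 genes with an unadjusted p below 0.05. In MC38-DKO, at 0.0920% of all genes called, no sensor gene had an unadjusted p below 0.05, and the log2 differences were between -1.14 (Ddx60) and 0.08 (Mavs). Ifih1 was at 254, 136 and 112 in MC38-DKO and at 239, 127 and 74 in MC38-CMAS KO, so that the samples of these 2 lines overlapped. Between MC38-DKO and MC38-CMAS KO, 6.93% of all genes and 0 of 7 sensor genes were called, with 0 at an unadjusted p below 0.05. Only Mavs did not overlap between these lines, at 861, 876 and 824 against 766, 783 and 821 (0.11), compared with 24.5% of all genes. The comparisons with MC38-MOCK#1 share its 3 samples.

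Whether the COSMC label went with the same difference with and without the CMAS knockout was tested as an interaction over the 12 samples of MC38-MOCK#1 and the 3 knockout lines. The contrast subtracts the difference between MC38-COSMC KO and MC38-MOCK#1 from that between MC38-DKO and MC38-CMAS KO. It was 1.5 on the log2 scale for Ddx58 (SE 0.468, adjusted p = 0.0336) and 1.91 for Ifih1 (SE 0.591, adjusted p = 0.032), and 22.1% of all genes were called in this contrast, 11.1% as higher (2372 higher and 2364 lower, or 2810 and 2068 with equal totals). Thus 2 of 7 sensor genes were called, and the median of the 7 was 0.59. Both calls were lost when sample 1 of MC38-DKO, sample 3 of MC38-MOCK#1, or sample 2 or 3 of MC38-CMAS KO or MC38-COSMC KO was left out, with adjusted p-values of 0.0518 to 0.0852, and that of Ddx58 also without sample 2 of MC38-DKO (0.0535). The value for Mavs was 0.28 (adjusted p = 0.112), though Mavs was called without sample 3 of MC38-MOCK#1 and with equal totals, and those of the 4 other genes did not pass. Of the interferon-induced genes, 8 of 28 were called higher and none lower (median 1.18), including Oas1a (3.60) and Oas3 (3.66), and Irf1 (1.22, adjusted p = 3.47e-05) and Nlrc5 (2.27, adjusted p = 3.29e-06) were higher as well. Tbk1 was lower (-1.09, adjusted p = 9.15e-06). Markers of other cell types moved in the same contrast: of the mesenchymal markers, 3 of 5 tested were called lower, Col1a1 (-3.81), Col1a2 (-3.53) and Pdgfrb (-5.34), and of the epithelial markers 1 of 3, Krt20 (-4.29). Summed epithelial markers were at 31 to 48 in MC38-CMAS KO and at most 9 in the other 3 lines, while summed mesenchymal markers, mainly Vim, overlapped between MC38-CMAS KO (28036 to 32293) and MC38-DKO (24617 to 33382). Their part in the result was not tested. C1galt1c1 itself had an interaction of 0.73 (adjusted p = 0.0201), since its RNA was lower in MC38-COSMC KO than in MC38-MOCK#1 but alike in MC38-DKO and MC38-CMAS KO, at means of 182 and 183.

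Among lines without a targeted glycosylation gene, no sensor gene was called with limma. MC38-WT and MC38-MOCK#1 differed in 5.51% of all genes, and the only sensor gene with an unadjusted p below 0.05 was Mavs, at 677, 716 and 579 against 864, 863 and 702 (log2 difference -0.30, adjusted p = 0.218). Against MC38-WT, MC38-COSMC KO differed in 0.581% of all genes and in no sensor gene, with Ifih1 (-1.51, adjusted p = 0.114) and Ddx60 (-1.93, adjusted p = 0.319) at an unadjusted p below 0.05. The Ifih1 values of MC38-WT were 119, 302 and 219, all above those of MC38-COSMC KO, which held for no other sensor gene, compared with 17.3% of all genes without overlap. MC38-MOCK#2 and MC38-MOCK#1 differed in 11.3% of all genes, and 0 of 7 sensor genes had an unadjusted p below 0.05. The 95% interval for Ddx58 in that comparison, -0.97 to 1.1, is wide because both lines held a sample far above the others. These lines shared only passage 6, and MC38-WT and MC38-MOCK#1 shared none, so that line and passage can hardly be told apart. With passage as a covariate, no sensor gene was called, but the median log2 difference of the 7 genes moved. Between MC38-MOCK#2 and MC38-MOCK#1 it went from 0.06 to -1.16 (3 genes at an unadjusted p below 0.05, Ddx58 from 0.07 to -1.16). Between MC38-WT and MC38-MOCK#1 it went from -0.19 to -1.47 (4 genes). The shares of all genes at that level are not given here, so that these counts cannot be read as particular to the sensors. Because the lines share only passage 6 or no passage, these values rest on passage trends within lines.

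Within lines, 5 of the 7 sensor genes, Ddx58, Ifih1, Ddx60, Eif2ak2 and Tlr3, mostly varied together from sample to sample. Dhx58 followed them in some lines only. In MC38-WT, sample 2 (passage 8) was the highest for all 7 sensor genes and for all 28 interferon-induced genes, and Ddx58 was at 326, 1313 and 871. In MC38-MOCK#1 and MC38-MOCK#2, sample 3 (passages 6 and 8) was highest for all sensor genes but Mavs. In the 3 knockout lines, sample 1 (passage 4) was highest for Ddx58, Ifih1, Ddx60, Eif2ak2 and Tlr3 and for at least 25 of 28 interferon-induced genes. Dhx58 was highest in sample 1 of MC38-DKO, but in sample 2 of MC38-COSMC KO and MC38-CMAS KO. In MC38-CMAS KO it was lowest in sample 1. In MC38-FUT9, sample 3 was highest for the same 5 genes, whereas Dhx58 was lowest in sample 3 and highest in sample 2. In the line labelled FUT4, samples 1 and 3 were above sample 2 for all 7 genes. The lowest and highest Ddx58 values within MC38-WT, and likewise within MC38-MOCK#2, lay further apart than the means of any other lines did, MC38-FUT9 left aside.

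**Figure D3:**
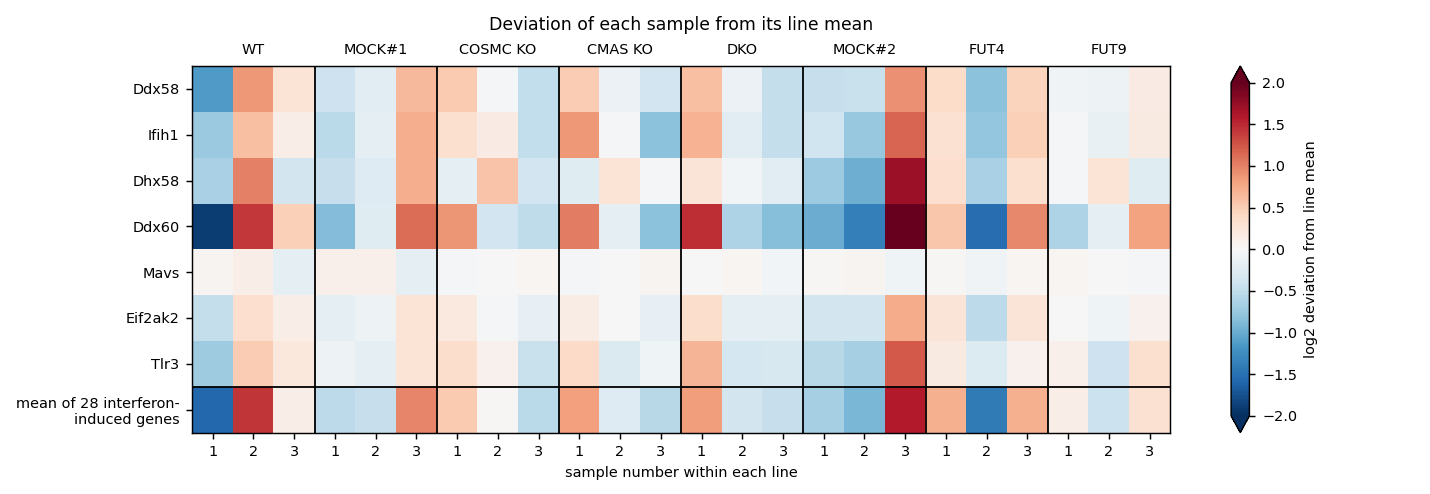
Deviation (log2) of each of the 24 samples from the mean of its line, for the 7 sensor genes and, in the bottom row, for the mean of 28 interferon-induced genes, with colors cut at 2 and -2. Red samples, such as sample 2 of MC38-WT and sample 3 of MC38-MOCK#2, are high in 6 sensor genes and in the interferon-induced mean, while the row of Mavs stays near 0.

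After line means were subtracted, the correlation over the 24 samples with the mean of the 28 interferon-induced genes was r = 0.979 for Ddx58, 0.961 for Eif2ak2, 0.957 for Ddx60, 0.944 for Ifih1, 0.890 for Tlr3 and 0.785 for Dhx58. For Mavs it was -0.232. These values describe 24 libraries that share lines, passages and scaling, and no test was attached. Of the 6 genes with promoter entries, the 4 with the interferon motif in 300 bases, Ddx58, Eif2ak2, Ddx60 and Ifih1, had the highest correlations. Mavs, without a match, had the lowest. Tlr3 had a high correlation without a match in its entry, whose start lies inside the annotated gene. The search of 300 bases was added after the data were seen. Within the 250 bases before the start, only Ddx60 held the motif. Whether the motif bears on the correlation was not tested. Between lines Eif2ak2 took a different course. In the 3 samples of MC38-FUT9, the interferon-induced mean was at 3.49 to 4.21 (log2), below the lowest value of any other sample, 5.07, while Eif2ak2 was as high as in most other lines. With line means kept, the correlation over all 24 samples was 0.579 for Eif2ak2, 0.957 for Ddx58, 0.919 for Ifih1 and 0.282 for Mavs. Without MC38-FUT9, the same correlation over the remaining 21 samples was 0.823 for Eif2ak2, 0.941 for Ddx58, 0.884 for Ifih1 and 0.021 for Mavs.

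**Figure D4:**
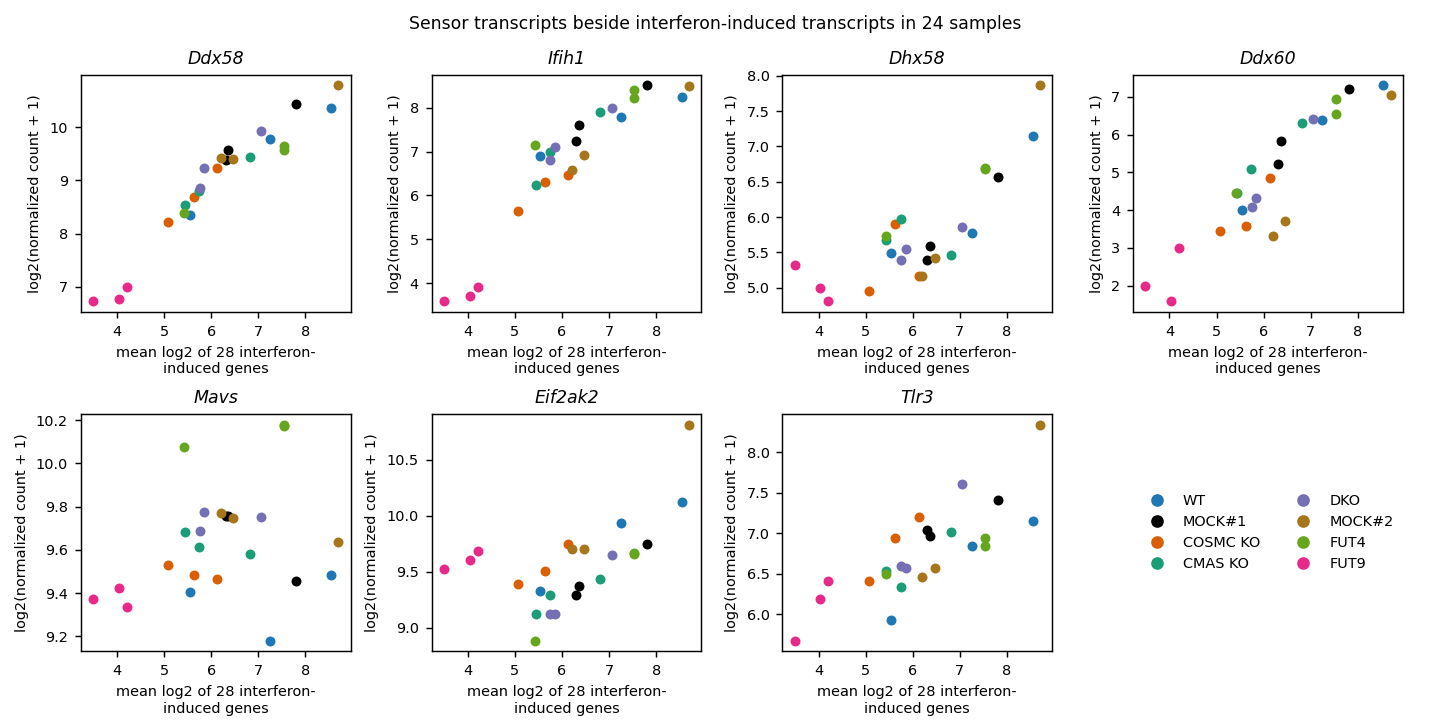
Each sensor gene (log2 of the normalized count plus 1) against the mean log2 value of 28 interferon-induced genes, 1 point per sample, colored by line. MC38-FUT9 (pink) lies at the low end of both axes for Ddx58, Ifih1 and Ddx60, whereas Eif2ak2 in MC38-FUT9 stayed at 734 to 824 normalized counts.

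The genes whose pattern was most like that of a sensor gene were searched among 10867 genes with a mean of at least 50. Over the 24 samples, Ddx58 was most like Irgm1, Oas1g and Parp14 (r = 0.977, 0.976 and 0.975), and Ifih1 like Psmb8, Pon2 and Rsad2 (0.969, 0.963 and 0.962). Irgm1 is an interferon-inducible GTPase, Psmb8 an immunoproteasome subunit and Rsad2 the antiviral protein viperin. The nearest genes of Ddx60 were Apol9b, Rsad2 and Apol9a (0.945, 0.937 and 0.936), those of Dhx58 were Daxx, Adar and Irf9 (0.914, 0.878 and 0.876), and those of Tlr3 were Trafd1, Irgm2 and Parp9 (0.891, 0.882 and 0.874). Adar edits double-stranded RNA, and Irf9 is part of the transcription factor complex that acts below the interferon receptor. The nearest genes of Mavs and Eif2ak2 were of other kinds: Hgf, Ppp2r2a and Cdca2 for Mavs (0.911, 0.887 and 0.887), and Rab13, Arsa and Rbl2 for Eif2ak2 (0.891, 0.877 and 0.861). After removal of line means, Eif2ak2 was closest to Samd9l, Parp9 and Irgm1 (0.965, 0.962 and 0.960), and Samd9l was among the nearest 3 genes of Ddx58, Ifih1, Ddx60, Eif2ak2 and Tlr3. Mavs was closest to Dnm2, Pcgf2 and Scap (0.844, 0.772 and 0.769).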

How the data were processed

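RNA of 24 MC38 samples (8 lines, 3 each) was sequenced by the authors. Per the study's methods and the submitters' processing notes, reads were trimmed with Sickle, aligned to GRCm38 with HISAT2 2.0.4, sorted with SAMtools 0.1.19, counted per gene with featureCounts (Subread 1.5.0-p3) and normalized for library size and by TMM with edgeR 3.18.1. What the authors deposited is a score: read counts after scaling, rounded to whole numbers. Since these are no raw counts, count models were not used. Totals of 10911849 to 12263307 are those of scaled values. The library kit was stranded, but whether strand was used in counting is not given in the sources used here. Per the study, reads that overlapped multiple genes were left out of the counts. What this did to the values of overlapping genes was not tested.

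Lines were compared with limma 3.58.1 in R 4.3.3 (lmFit, eBayes with a mean-variance trend, two-sided) on the log2 scale after adding a pseudocount of 1, using the 3 samples of each line without covariates. A gene entered if at most 4 of 6 samples were at 0 (8 of 12 for the interaction, 16 of 24 for the F test), and genes were called at a Benjamini-Hochberg adjusted p below 0.05 over all genes tested. Log2 differences understate changes of low values. Samples were separate harvests per the study, and p-values measure the spread between them. The fits were tested on simulated data. Figures and correlations used Python 3.11.15.

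The 7 genes and the lists around them were chosen with earlier results of these data known. Named genes were the 7 sensors, the targeted genes, up to 4 called genes of each list per comparison with the smallest adjusted p, and the 3 genes most like each sensor by Pearson correlation. A gene of these lists that the rule names is not reported here. Irf3 and Ifnb1 fall outside this rule, and their values were known when they were chosen. The comparison of MC38-FUT9 with the line labelled FUT4, the count of its samples 1 and 3 as 1, and the search of whole promoter entries were chosen after seeing the data. Alternatives were the pseudocount, the filter, the scaling, all lines in 1 fit, no mean-variance trend, a replicate block, passage as a covariate, a stricter threshold and leaving out each sample.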

Additional observations from a re-analysis of the deposited data

Results flagged for a closer look

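The interaction of the COSMC and CMAS labels was past the threshold for 2 of 7 sensor genes. It was also past the threshold for 22.1% of all genes tested, 11.1% as higher, so that the count alone does not set the sensors apart. For these 2 genes, the difference that goes with the COSMC label was not the same with and without the CMAS knockout. The contrast was 1.4986 on the log2 scale for Ddx58 (limma adjusted p = 0.0336) and 1.9123 for Ifih1 (adjusted p = 0.032). Ddx58 was at 437 ± 154 in MC38-COSMC KO, 940 ± 394 in MC38-MOCK#1, 678 ± 267 in MC38-DKO and 501 ± 167 in MC38-CMAS KO normalized counts (mean ± SD, n = 3). Over the alternatives the contrast stayed positive, at 1.18 to 1.76 for Ddx58 (adjusted p 0.0176 to 0.105) and 1.5 to 2.34 for Ifih1 (adjusted p 0.00823 to 0.0931). Both calls were lost without MC38-DKO sample 1, MC38-CMAS KO sample 2 or 3, MC38-COSMC KO sample 2 or 3, or MC38-MOCK#1 sample 3, and that of Ddx58 also without MC38-DKO sample 2.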

How the results depend on the processing

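The 3 calls in MC38-FUT9 against MC38-MOCK#2 held under every scaling, filter and pseudocount tried and without each sample (3 sensor genes called throughout). Mavs was the exception without a mean-variance trend (adjusted p = 0.0573) and at the stricter threshold of an absolute log2 difference above 1. Ddx60 was called in addition in 2 of the other settings (lowest limma adjusted p = 0.0475). The calls between MC38-COSMC KO and MC38-MOCK#1 depended on the settings: instead of 1 sensor gene, 3 were called with a filter at a mean of 10, 2 with equal totals, 2 with median-of-ratios scaling, 0 without a trend, and 0 to 1 without single samples. Mavs was called in MC38-WT against MC38-MOCK#1 when all 8 lines were fitted together (1 gene), and Ddx58 in MC38-DKO against MC38-CMAS KO with passage as a covariate (1 gene). Mavs in the line labelled FUT4 was not called at the stricter threshold (0 genes). For the interaction, 1 gene was called in the fit of all lines, 0 without a trend, 3 with equal totals (Mavs added) and 0 to 2 without single samples. MC38-FUT9 against the line labelled FUT4 gave 3 to 5 genes without single samples, 6 with equal totals or a filter at a mean of 10 (Tlr3 added), and 4 with all lines (Dhx58 lost), with samples 1 and 3 of the latter line as 1 (Dhx58 lost) or at the stricter threshold (Mavs lost). The F test gave 3 to 4 without single samples. The cause of these changes was not tested.

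Same-numbered samples were not shown to be paired: the mean correlation of their deviations from line means was between -0.0988 and 0.167 over the comparisons, and in no comparison were all 3 correlations above 0.1. Every sample correlated best with its own number in 3 of 10 comparisons (MC38-DKO with MC38-CMAS KO, MC38-MOCK#2 with MC38-MOCK#1, MC38-FUT9 with MC38-MOCK#2). With the replicate number as a block, 0 sensor genes were called in MC38-COSMC KO against MC38-MOCK#1, where 4 genes in all were called instead of 2563, and 0 in the line labelled FUT4 against MC38-MOCK#2 (Mavs, adjusted p = 0.0531). The block changed no other count of sensor genes, although in MC38-FUT9 against the line labelled FUT4 it exchanged Dhx58 for Tlr3 among the 5 genes called. The counts over all genes, and with them the shares called, moved with the settings. Without single samples they were 675 to 2137 (2563 with all) for MC38-COSMC KO against MC38-MOCK#1, 31 to 693 (1192) for MC38-WT, 122 to 876 (1268) for MC38-CMAS KO, 0 to 4 (20) for MC38-DKO and 632 to 1737 (2454) for MC38-MOCK#2 against the same line. They were 0 to 21 (127) for MC38-COSMC KO against MC38-WT, 231 to 761 (1515) for MC38-DKO against MC38-CMAS KO, 1621 to 3112 (3509) for the line labelled FUT4 and 3089 to 5065 (5166) for MC38-FUT9 against MC38-MOCK#2. Between MC38-COSMC KO and MC38-MOCK#1, 2563 genes became 1135 without a trend and 828 at the stricter threshold. Between MC38-WT and MC38-MOCK#1, 1192 became 2924 with all lines, 0 with the block, 4 with passage, 717 without a trend and 651 at the stricter threshold. Between MC38-COSMC KO and MC38-WT, 127 became 908 with all lines and 0 with the block or passage. For MC38-CMAS KO against MC38-MOCK#1, 1268 became 2154, 1 with the block, 726 without a trend and 580 at the stricter threshold. For MC38-DKO against MC38-MOCK#1, 20 became 148, 0 with the block and 40 without a trend. For MC38-DKO against MC38-CMAS KO, 1515 became 2360, 795 with the block, 2509 with passage, 692 without a trend and 591 at the stricter threshold. For MC38-MOCK#2 against MC38-MOCK#1, 2454 became 3889, 583 with passage, 1389 without a trend and 1064 at the stricter threshold. For the line labelled FUT4 against MC38-MOCK#2, 3509 became 1756 with the block, 2270 without a trend, 1447 at the stricter threshold and 1739 with samples 1 and 3 as 1. MC38-FUT9 gave 5166 genes against MC38-MOCK#2, 3430 without a trend and 1823 at the stricter threshold, and 6922 against the line labelled FUT4, 2519 at the stricter threshold. With 3 samples per line, intervals of Ddx60 and Dhx58 stayed wide.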
